A study of Mus musculus with 12 samples.

Results

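Frizzled genes encode the cell surface receptors of Wnt proteins, and the mouse genome has Fzd1 to Fzd10. All probes annotated to 1 of these 10 genes were taken, which gave 19 of the 45281 probes on the array and 10 of the 19057 genes that the annotation names. After a filter on dim probes, 14 probes of 8 genes were tested: Fzd1, Fzd2, Fzd3, Fzd5, Fzd6, Fzd7, Fzd8 and Fzd10. Both probes of Fzd4, the single probe of Fzd9 and 2 of the 4 probes of Fzd5 stayed below the filter.

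A Frizzled protein crosses the membrane several times and binds a Wnt protein, or in the case of Fzd4 also Norrin, through a cysteine-rich domain outside the cell. Together with the co-receptors Lrp5 and Lrp6 it recruits Dishevelled and stabilises beta-catenin, and some Frizzled proteins also act in planar cell polarity, which orients cells within a sheet. In the mouse mammary gland, Wnt/beta-catenin signalling is known for sustaining stem cell activity in the basal layer, and Fzd7 has been tied to that activity. By sequence, Fzd1, Fzd2 and Fzd7 form one subfamily, Fzd5 and Fzd8 another, Fzd3 and Fzd6 another, and Fzd4, Fzd9 and Fzd10 the last.

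The cells came from mammary glands of female FVB/NJ mice. Ovariectomized (ovx) mice had their ovaries removed at an age of 8 weeks and gave tissue 4 weeks later, in 2 pools of 6 mice. For the 2 control pools no pool size, age or sham surgery is stated. Cells negative for CD45, CD31 and TER119, which mark blood and vessel-lining cells, were sorted by CD29 and CD24 to a stated purity above 90%, and every pool gave both fractions. The mammary stem cell-enriched (MaSC-enriched) fraction is CD29hi CD24+ and also holds the basal and myoepithelial cells, while the luminal fraction is CD29lo CD24+. The groups were therefore ovx MaSC-enriched, control MaSC-enriched, ovx luminal and control luminal cells, with 2 RNA samples each, and 4 of the 8 RNAs were hybridised to a second array.

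Levels are log2 values of background-corrected, quantile-normalized bead intensity. Levels of different genes come from different probes, so only 1 gene's values are set against each other. In these bulk samples, fewer cells of a type and less RNA per cell cannot be told apart. Replicate 1 of the control MaSC-enriched group had 12994 detected probes and the other 11 arrays 17705 to 18903. Its lowest log2 signal counted as detected was 7.29, against 5.73 to 5.93 elsewhere. Arrays of the same RNA differed by a median of 0.177 on the log2 scale over the tested Frizzled probes, and by 0.818 at most.

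The fractions carried the markers of their names. All 9 tested basal and myoepithelial markers were higher in MaSC-enriched cells, Krt5 by 6.87 on the log2 scale (limma adjusted p = 8.81e-05), and 10 of 11 tested luminal markers were lower. Markers of other cells differed between the fractions too. Of the pericyte markers, 7 of 8 were higher in MaSC-enriched cells, with mean log2 levels per sample of 7.92 to 9.25 there and 6.67 to 7.41 in luminal cells. Of the endothelial markers, 6 of 7 were higher, at 9.85 to 11.58 in MaSC-enriched and 8.29 to 8.95 in luminal cells, although CD31+ cells had been sorted out. Of all tested genes, 13.7% were higher in MaSC-enriched cells and 13.1% lower. Beside that share stood 1 of 8 fibroblast, 2 of 3 adipocyte and 1 of 3 immune markers that were higher, and of 3 Schwann cell markers 1 was higher and 1 lower. Skeletal muscle markers were lower in MaSC-enriched cells for 5 of 6 genes, with ovx luminal cells at 10.21 and 10.91 and the 6 samples of the other groups at 5.52 to 7.13. Proliferation genes stood at 11.77 and 12.13 in the MaSC-enriched and luminal samples of the control replicate 2 pool, and at 7.14 to 8.89 in the 6 other samples. The part of these cells and of this pool in the Frizzled results below was not tested, beyond the values without that pool.

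The promoters of Fzd7 and Fzd1, which both stood higher in MaSC-enriched cells, and of Fzd10, which stood higher in luminal cells, are shown here because these genes went with the fractions in opposite directions. They are 300-base windows from RefSeq on GRCm38.p6, from 250 bases before the gene start to 50 after it, and RefSeq windows were at hand for 6 of the 10 genes. Capitals mark the GC box, which reads GGGCGG, the CCAAT box and the TATA box, which reads TATAAA, on either strand.

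Fzd7, chr1:59481897-59482196, plus strand: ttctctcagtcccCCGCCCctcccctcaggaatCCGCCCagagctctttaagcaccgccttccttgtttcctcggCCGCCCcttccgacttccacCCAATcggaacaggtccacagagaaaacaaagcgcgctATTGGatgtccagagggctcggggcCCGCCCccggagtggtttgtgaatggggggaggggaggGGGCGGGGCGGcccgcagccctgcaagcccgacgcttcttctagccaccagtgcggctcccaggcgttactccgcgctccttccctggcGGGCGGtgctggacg

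Fzd1, chr5:4758167-4758466, minus strand: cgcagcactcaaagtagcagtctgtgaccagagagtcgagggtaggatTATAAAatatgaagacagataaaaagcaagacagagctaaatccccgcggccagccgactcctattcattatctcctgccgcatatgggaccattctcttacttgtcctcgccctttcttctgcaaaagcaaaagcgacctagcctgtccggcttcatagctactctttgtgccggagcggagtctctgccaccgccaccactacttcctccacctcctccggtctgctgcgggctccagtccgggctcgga

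Fzd10, chr5:128600856-128601155, plus strand: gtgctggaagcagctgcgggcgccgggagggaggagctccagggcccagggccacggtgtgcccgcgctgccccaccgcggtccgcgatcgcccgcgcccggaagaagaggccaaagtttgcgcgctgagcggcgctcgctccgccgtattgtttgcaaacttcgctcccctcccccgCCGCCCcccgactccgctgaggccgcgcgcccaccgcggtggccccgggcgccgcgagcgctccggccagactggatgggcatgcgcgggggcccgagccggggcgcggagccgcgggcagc

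The Fzd7 window held 7 GC boxes, a pair of which share a base, and 2 CCAAT boxes. The Fzd1 window held 1 TATA box and the Fzd10 window 1 GC box. Of 32851 windows of this length, 35.7% held a GC box, 37.4% a CCAAT box and 13.6% a TATA box. A core motif of the TCF/LEF factors that act with beta-catenin, CTTTGAA on either strand, was not among the letters of the 3 windows and occurs in 5.14% of all windows. The Fzd10 window was 77.7% G and C, the Fzd7 window 66.7% and the Fzd1 window 54%, against a median of 52.7%. A match describes the letters only and shows no binding.

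The comparison of the fractions asks how the receptor set of the MaSC-enriched cells differs from that of luminal cells. Averaged over ovx and control mice, 7 of the 8 tested Frizzled genes passed an adjusted p of 0.05. Fzd1, Fzd2, Fzd3, Fzd7 and Fzd8 were higher in MaSC-enriched cells and Fzd6 and Fzd10 were lower. Over all 11292 tested genes, 26.8% passed in this comparison, 13.7% higher and 13.1% lower. The median log2 fold change of the 8 genes was 1.31, against −0.10 for all tested genes. All 4 MaSC-enriched samples lay above all 4 luminal ones for 4 of the 8 genes (Fzd1, Fzd3, Fzd7 and Fzd8), where 14.3% of all genes did so, and below them for 1, Fzd6, where 15.5% did. In ovx mice alone, 4 genes passed, where 14.6% of all genes did: Fzd2, Fzd7 and Fzd8 were higher (8.91% of all genes) and Fzd10 was lower (5.65%). In control mice alone Fzd7 was the gene that passed, where 11.8% of all genes did and 6.91% were higher.

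**Figure D1:**
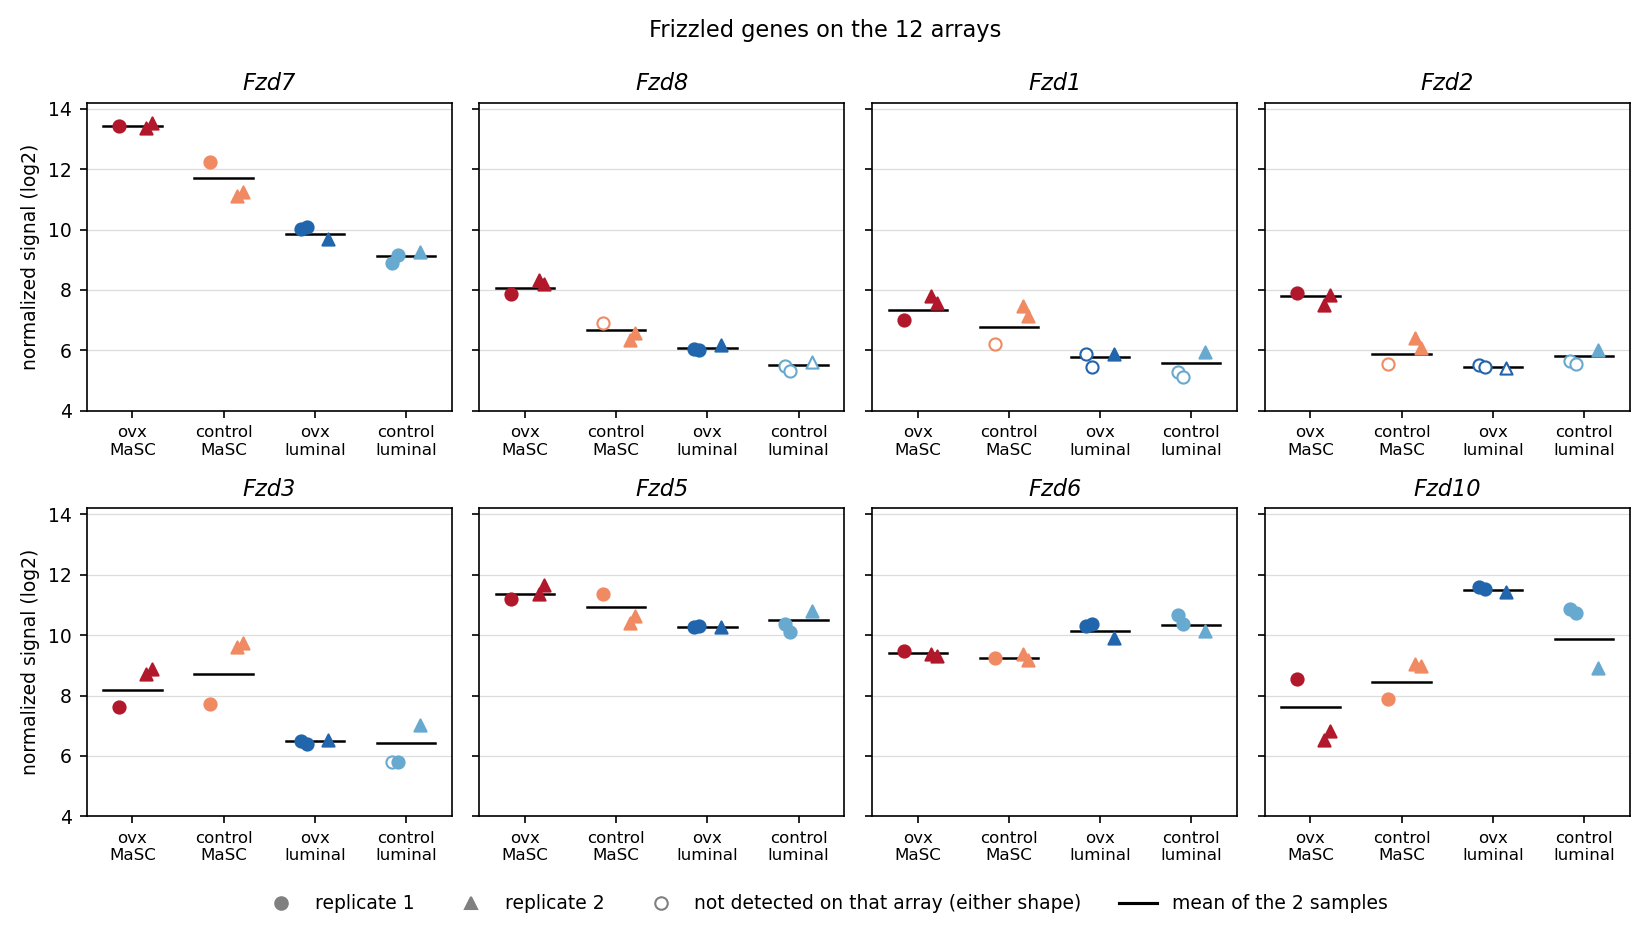
Normalized log2 signal of the 8 tested Frizzled genes (brightest probe of each) on the 12 arrays, by group; circles are replicate 1, triangles replicate 2, hollow symbols arrays on which the probe was not detected, and lines the mean of the 2 samples. With the arrays of 1 RNA averaged, Fzd7 lies at 13.44 in both ovx MaSC-enriched samples and between 9.02 and 10.05 in luminal samples. Fzd10, averaged in the same way, is highest in ovx luminal cells, at 11.42 and 11.56. Heights of different genes are not comparable.

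Fzd7 showed the largest fold change of the 8 genes in favour of MaSC-enriched cells. Its log2 level was 13.44 and 13.44 in ovx MaSC-enriched samples, 12.23 and 11.19 in control MaSC-enriched samples, 10.05 and 9.67 in ovx luminal samples and 9.02 and 9.25 in control luminal samples. Every MaSC-enriched sample lay above every luminal one. Averaged over treatments, Fzd7 was 8.42-fold higher in MaSC-enriched cells (log2 fold change 3.07, SE 0.284, limma adjusted p = 0.000524). In ovx mice the difference was 3.58 (SE 0.401, adjusted p = 0.00247) and in control mice 2.57 (SE 0.401, adjusted p = 0.00988). All 4 pools showed it, with within-pool differences from 1.93 to 3.77. The averaged difference passed in all 23 alternative settings, at 2.48 to 3.39. In control mice the call ended with median scaling (1.66, adjusted p = 0.0735), on beadchip 1 alone (2.79, 0.125) and without control luminal replicate 1 (2.46, 0.0749), and in ovx mice on beadchip 1 alone (3.38, 0.0955). Median scaling itself moved the median of all genes by −0.71 in the control comparison.

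Fzd1 and Fzd2 belong to the subfamily of Fzd7 and have overlapping roles in closure of the mouse palate. Fzd1 stood at 7.01 and 7.68 in ovx MaSC-enriched samples, 6.22 and 7.30 in control MaSC-enriched samples, 5.66 and 5.87 in ovx luminal samples and 5.21 and 5.93 in control luminal samples. All MaSC-enriched samples were above all luminal ones, but the probe was near the detection limit, detected in 5 of the 8 samples. The averaged difference was 1.39 (SE 0.334, adjusted p = 0.0237), with 1.01 to 1.81 within the 4 pools. The 1.01 was that of the control replicate 1 pool, where neither sample detected Fzd1. The difference was 1.58 in ovx mice (adjusted p = 0.0746) and 1.19 in control mice (adjusted p = 0.163). With the pool as a fixed replicate block the ovx value passed (adjusted p = 0.0316).

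Fzd2 passed between the fractions on average and in ovx mice. It stood at 7.91 and 7.68 in ovx MaSC-enriched samples, 5.55 and 6.24 in control MaSC-enriched samples, 5.47 and 5.40 in ovx luminal samples and 5.59 and 6.02 in control luminal samples. Only the ovx MaSC-enriched samples were clearly high, and in control mice the fractions overlapped. No ovx luminal array detected Fzd2, so in ovx mice it was at least 4.02-fold higher in MaSC-enriched cells (fitted log2 fold change 2.36, SE 0.349, adjusted p = 0.00655). In that bound, each array below its detection limit is raised to the limit. In control mice the fitted difference was 0.09 (95% confidence interval −0.73 to 0.91, adjusted p = 0.894), and 0.86 with undetected values at the limit. Neither control replicate 1 sample detected Fzd2, and the limit was 7.29 on its MaSC-enriched array against 5.83 and 5.74 on its luminal arrays. For that pool the raised values are array limits and not Fzd2 signal. The averaged difference was 1.23 (SE 0.247, adjusted p = 0.0119), with 2.45 and 2.28 in the ovx pools and −0.05 and 0.22 in the control pools, where −0.05 sets an undetected signal against another.

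Fzd8 and Fzd5 form the next subfamily, and Fzd5 is known in mouse for roles in the eye, the placenta and intestinal Paneth cells. Fzd8 stood at 7.88 and 8.25 in ovx MaSC-enriched samples, 6.91 and 6.46 in control MaSC-enriched samples, 6.02 and 6.16 in ovx luminal samples and 5.40 and 5.63 in control luminal samples. All MaSC-enriched samples were above all luminal ones. No control luminal array detected Fzd8. The averaged difference between fractions was 1.57 (SE 0.225, adjusted p = 0.00305), with 0.83 to 2.09 within pools. In ovx mice Fzd8 was 3.93-fold higher in MaSC-enriched cells (1.97, SE 0.318, adjusted p = 0.00884). In control mice the fitted difference of 1.17 did not pass (adjusted p = 0.0633), and control MaSC-enriched replicate 1 did not detect Fzd8 either. It passed with the pool as a random replicate block (adjusted p = 0.035). The averaged call ended on beadchip 1 alone (1.61, adjusted p = 0.0729).

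Fzd5 was detected on all 12 arrays by its brightest probe. Its level was 11.20 and 11.51 in ovx MaSC-enriched samples, 11.37 and 10.52 in control MaSC-enriched samples, 10.29 and 10.26 in ovx luminal samples and 10.25 and 10.79 in control luminal samples. In ovx mice the fractions did not overlap, and in control mice they did. The averaged difference of 0.76 missed the threshold (SE 0.273, adjusted p = 0.0862). Leaving out the control replicate 2 pool, whose own difference was −0.26, gave 1.10 (adjusted p = 0.016), and median scaling gave 0.13 (adjusted p = 0.803). The other tested Fzd5 probe gave 0.47 (adjusted p = 0.333).

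Fzd3 and Fzd6 are the Frizzled genes best known for planar cell polarity in the mouse, Fzd3 in axon tracts and Fzd6 in hair orientation. They went in opposite directions here. Fzd3 stood at 7.61 and 8.79 in ovx MaSC-enriched samples, 7.73 and 9.68 in control MaSC-enriched samples, 6.46 and 6.53 in ovx luminal samples and 5.81 and 7.03 in control luminal samples. The lowest MaSC-enriched sample was above the highest luminal one, while the MaSC-enriched samples spread from 7.61 to 9.68. The averaged difference was 2.00 (SE 0.519, adjusted p = 0.031), and 1.15 to 2.65 within the 4 pools. It did not pass in ovx mice (1.70, adjusted p = 0.195) or control mice (2.29, adjusted p = 0.0996). With the pool as a block the control value passed, at an adjusted p of 0.0281 (fixed replicate block) and 0.0456 (random replicate block). A dimmer Fzd3 probe, ILMN_2421436, gave 1.66 on average (SE 0.298, adjusted p = 0.00746) and passed in control mice as well (2.20, adjusted p = 0.0202). The annotation names no transcript for this probe, unlike for the other Fzd3 probes. Its control MaSC-enriched samples stood at 8.72 and 7.74, in the opposite order to the brightest probe. The higher value was on the replicate 1 array, which had the fewest detected probes. This probe also had the largest difference between arrays of the same RNA, 0.818, in control luminal replicate 1. The last Fzd3 probe gave 1.46 (adjusted p = 0.114).

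Fzd6 was detected on every array and was lower in MaSC-enriched cells. It stood at 9.47 and 9.35 in ovx MaSC-enriched samples, 9.23 and 9.28 in control MaSC-enriched samples, 10.34 and 9.91 in ovx luminal samples and 10.51 and 10.15 in control luminal samples. The MaSC-enriched samples lay close together, from 9.23 to 9.47, and all below the luminal ones. Fzd6 was 1.86-fold lower in MaSC-enriched cells on average (log2 fold change −0.89, SE 0.218, adjusted p = 0.0246), with −1.28 to −0.56 within pools. Its other probe was 2.00-fold lower (adjusted p = 0.0452). Neither treatment alone passed (ovx −0.71, adjusted p = 0.197; control −1.08, adjusted p = 0.073), and with the pool as a random replicate block the control value did (adjusted p = 0.0394).

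Fzd10 had the largest fall of the 8 genes in MaSC-enriched cells. Its log2 level was 8.56 and 6.67 in ovx MaSC-enriched samples, 7.90 and 9.01 in control MaSC-enriched samples, 11.56 and 11.42 in ovx luminal samples and 10.79 and 8.93 in control luminal samples. Control luminal replicate 2 lay within the range of the MaSC-enriched samples, and the other luminal samples were above all of them. Averaged over treatments, Fzd10 was 6.23-fold lower in MaSC-enriched cells (log2 fold change −2.64, SE 0.569, adjusted p = 0.0156). In ovx mice it was 14.7-fold lower (−3.87, SE 0.805, adjusted p = 0.0229), a call that ended in 5 of 23 settings. These include no filter on dim probes (adjusted p = 0.0769) and leaving out ovx MaSC-enriched replicate 2 (−2.93, adjusted p = 0.122). In control mice the difference of −1.40 did not pass (adjusted p = 0.31). Of the 4 pools, 3 were lower in MaSC-enriched cells, with a largest difference of −4.75, and the control replicate 2 pool gave 0.08.

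Both other Fzd10 probes went the same way in the fitted averages. ILMN_2640796 gave −2.62 (adjusted p = 0.0152) and ILMN_2670576 −2.11 (adjusted p = 0.0107). Control MaSC-enriched replicate 1, with the high detection limit of 7.29, detected neither. With undetected values at the limit, the averages of these probes were −1.75 and −1.13, and their differences in control mice −0.35 and 0.003. In ovx mice neither was detected on a MaSC-enriched array, which made Fzd10 at least 8.84-fold and at least 4.79-fold lower by these probes (adjusted p = 0.025 and 0.017). Of the individual probes, 11 of the 14 Frizzled probes passed in the averaged comparison, where 24.3% of the 20995 tested probes did.

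**Figure D2:**
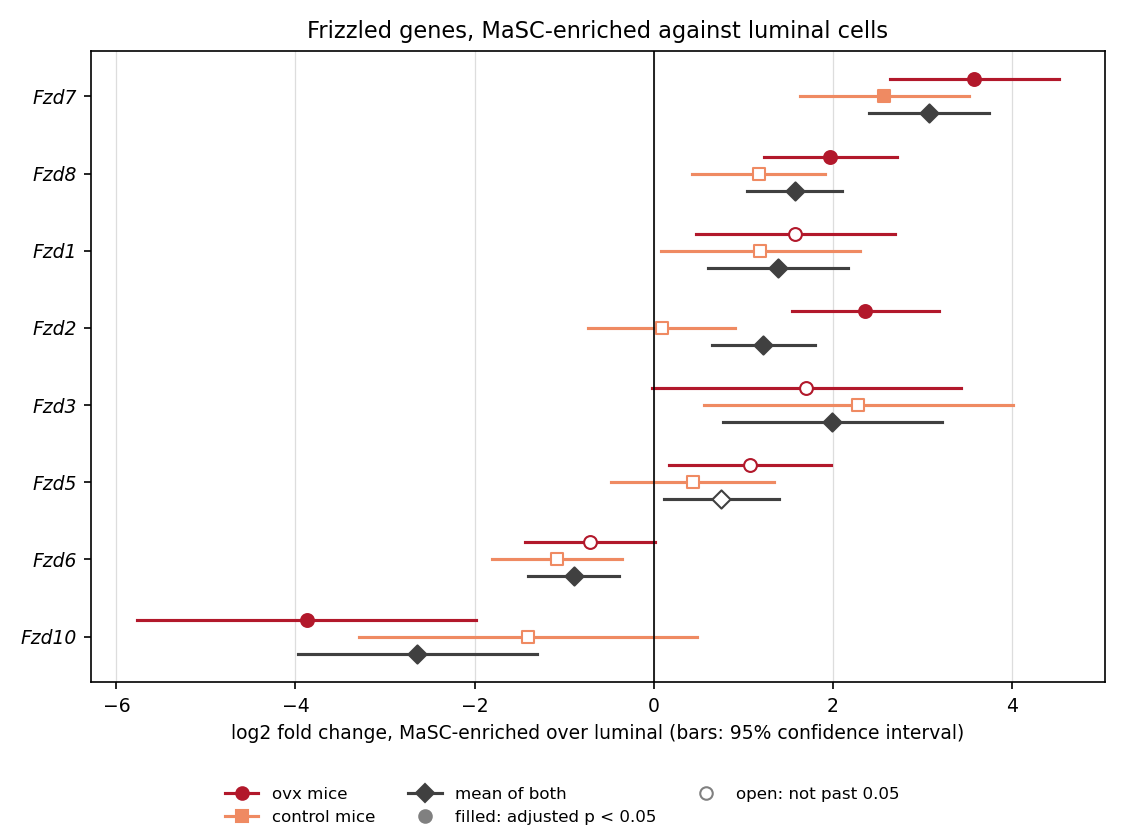
Log2 fold change of the brightest probe of each tested Frizzled gene, MaSC-enriched over luminal cells, in ovx mice (circles), control mice (squares) and their mean (diamonds), with 95% confidence intervals; filled symbols passed an adjusted p of 0.05. Fzd7, Fzd8, Fzd1, Fzd2 and Fzd3 lie right of 0 and Fzd6 and Fzd10 left of it with filled diamonds, while Fzd5, at 0.76, is open.

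**Figure D3:**
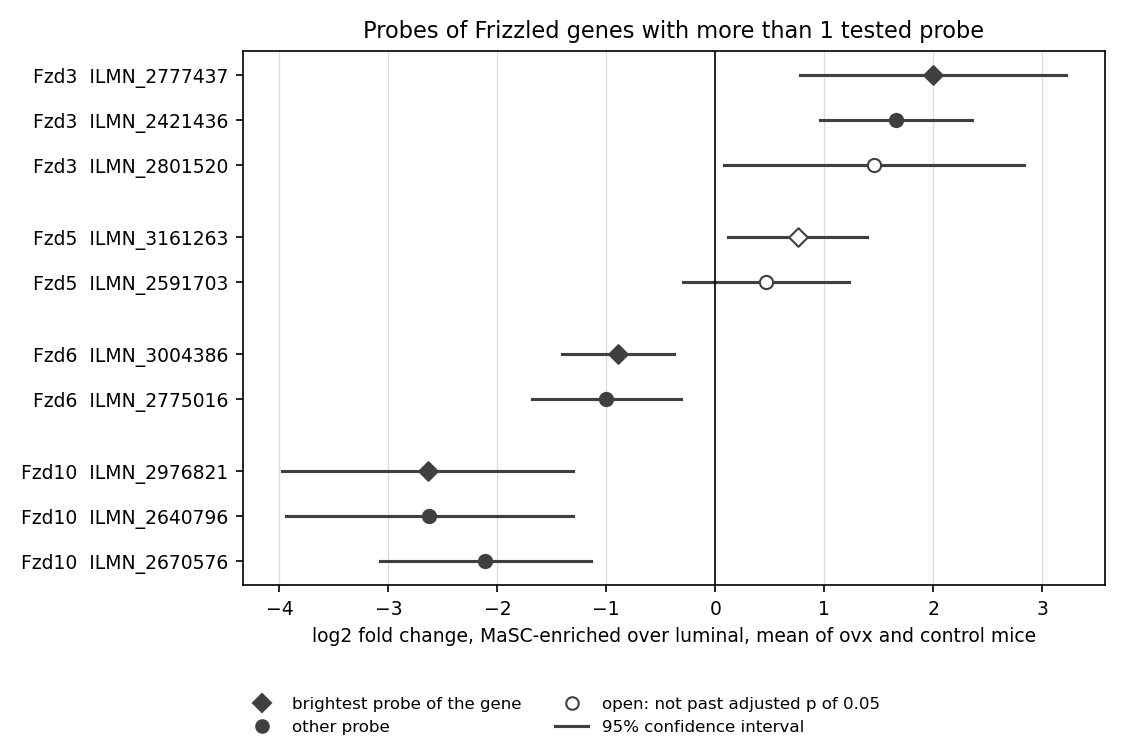
Averaged log2 fold change, MaSC-enriched over luminal cells, for each tested probe of the Frizzled genes with more than 1 tested probe, with 95% confidence intervals; filled symbols passed an adjusted p of 0.05 and diamonds are the brightest probe of a gene. Probes of 1 gene lie on the same side of 0, at 1.46 to 2.00 for Fzd3, 0.47 and 0.76 for Fzd5, below 0 for both Fzd6 probes and −2.64 to −2.11 for Fzd10.

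Fzd4 and Fzd9 had no tested probe. The brighter Fzd4 probe was detected on 4 of 12 arrays, with sample levels from 5.46 to 6.36, and the other on 1 array. Fzd9 was not detected on any array, at 4.89 to 5.45. These levels lie around or below the detection limit, which sets no fold for either gene.

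How many averaged calls passed depended on the samples kept. Of 23 alternative settings, the call ended in 7 each for Fzd1 and Fzd3, 6 for Fzd6, 5 for Fzd10, 3 for Fzd2, 1 for Fzd8 and 0 for Fzd7. Median scaling ended those of Fzd1 (1.28, adjusted p = 0.0685) and Fzd3 (1.64, adjusted p = 0.102). The count of 7 genes was 4 without the filter on dim probes. Beadchip 1 held both MaSC-enriched samples of each treatment and a lone luminal sample of each, and beadchip 2 the reverse. Fraction and beadchip were thus partly confounded in the main fit. With all 12 arrays and the beadchip fixed, the averaged calls were the same. Lost calls on beadchip 1 alone had log2 fold changes of 1.54 for Fzd1, 1.28 for Fzd2, 2.26 for Fzd3 and 1.61 for Fzd8. They were −1.12 for Fzd6 and −3.23 for Fzd10. Fits on 1 beadchip or without a sample leave at least 1 group on a lone sample. Without ovx luminal replicate 1 the log2 fold changes of the lost calls were 1.33 for Fzd1, 1.24 for Fzd2, 1.98 for Fzd3, −0.79 for Fzd6 and −2.60 for Fzd10. The calls over the whole array were fewer there too, 2453 probes against 5096 with all samples. In ovx mice, leaving out the control replicate 2 pool left the log2 fold changes unchanged, since no control sample enters that comparison. They stayed at 1.58 for Fzd1, 1.70 for Fzd3 and 1.08 for Fzd5, which had not passed with all samples. Calls gained there came with no change in fold change, and both control groups then stand on a lone sample. Without ovx luminal replicate 1 the lost calls in ovx mice were at 2.40 for Fzd2, 1.90 for Fzd8 and −3.80 for Fzd10.

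The comparison of ovx with control mice asks whether loss of the ovaries changed the receptors. No Frizzled gene passed in either fraction in limma. In MaSC-enriched cells 0.0708% of all tested genes did and in luminal cells 0.195%. At an unadjusted p under 0.05, 3 of the 8 Frizzled genes differed in MaSC-enriched cells, Fzd2, Fzd7 and Fzd8, all higher in ovx mice, where 9.11% of all genes reached that level and 5.92% were higher. In luminal cells 0 of the 8 did, where 8.17% of all genes did.

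In MaSC-enriched cells the ovx samples lay above the control samples without overlap for 4 of the 8 genes, where 21.3% of all genes did so. These were Fzd2, Fzd6, Fzd7 and Fzd8, of which Fzd6 differed by 0.16 (95% confidence interval −0.57 to 0.88). Fzd7 averaged 13.44 ± 0.007 in ovx and 11.71 ± 0.74 in control MaSC-enriched cells (SD, n = 2 each), a difference of 1.73 (95% confidence interval 0.79 to 2.67, adjusted p = 0.242). The ovx samples were nearly equal, and of the control samples replicate 2 was the lower. Fzd8 averaged 8.07 ± 0.26 in ovx and 6.68 ± 0.32 in control cells (SD, n = 2 each), a difference of 1.38 (0.64 to 2.13, adjusted p = 0.238), or 1.19 with undetected values at the detection limit.

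Fzd2 averaged 7.80 ± 0.17 in ovx and 5.89 ± 0.49 in control MaSC-enriched cells (SD, n = 2 each). The fitted difference was 1.90 (95% confidence interval 1.08 to 2.72, adjusted p = 0.143). The control replicate 1 array did not detect Fzd2 and had the high detection limit of 7.29, and with undetected values at the limit the difference was 1.03. Without control MaSC-enriched replicate 2 the fitted value passed (2.25, adjusted p = 0.0298), and that leaves the control group on the array with the high limit.

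For the other tested genes in MaSC-enriched cells, the intervals were wide. The difference for Fzd1 was 0.58 (95% confidence interval −0.53 to 1.69), or 0.050 with undetected values at the detection limit. The differences were 0.41 for Fzd5 (95% confidence interval −0.50 to 1.31), −0.51 for Fzd3 (−2.23 to 1.22) and −0.84 for Fzd10 (−2.73 to 1.06). The sign of Fzd3, Fzd5 and Fzd10 turned when 1 of the samples was left out. Among the markers, Lep, the adipocyte hormone gene, was higher in ovx MaSC-enriched cells (4.77, adjusted p = 0.0226), with the 3 tested adipocyte markers at mean levels of 8.51 and 8.59 in ovx and 6.01 and 6.13 in control cells. Of the 6 listed adipocyte markers 3 were tested and 1, Lep, passed here, while the others differed by 1.39 and 1.28. Any part of adipocytes in the Frizzled values was not tested.

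In luminal cells Fzd10 differed most, at 11.49 ± 0.10 in ovx and 9.86 ± 1.32 in control cells (SD, n = 2 each). The difference of 1.63 did not pass (95% confidence interval −0.26 to 3.53, adjusted p = 0.761), and its other probes gave 1.70 and 1.53. Of the control samples, replicate 2, in the pool with high proliferation genes, was the lower. Without that pool the difference was 0.70 (adjusted p = 1). Fzd7 stood at 9.86 ± 0.27 in ovx and 9.14 ± 0.16 in control luminal cells (SD, n = 2 each), a difference of 0.73 (−0.22 to 1.67, adjusted p = 0.802). Fzd8 differed by 0.58 (−0.17 to 1.33, adjusted p = 0.801). No control luminal array detected Fzd8, and with undetected values at the detection limit the difference was 0.32. The other 5 genes differed by −0.37 to 0.19.

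**Figure D4:**
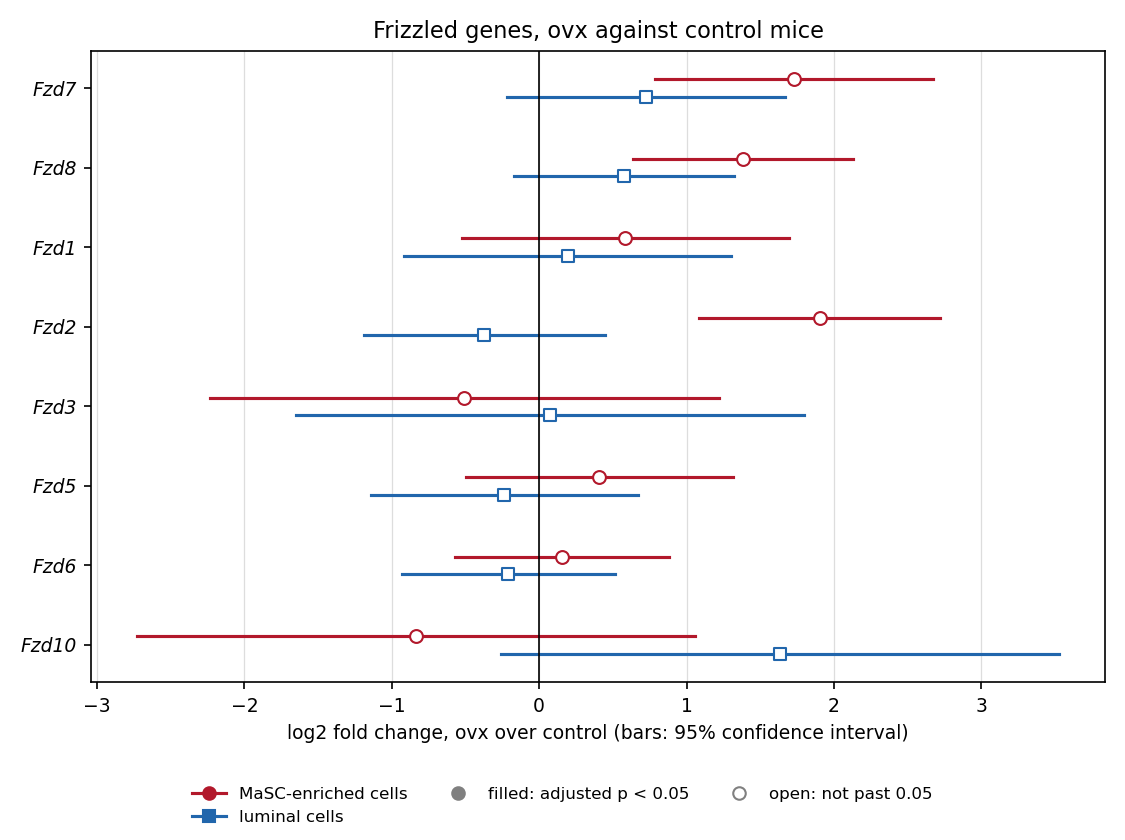
Log2 fold change of each tested Frizzled gene, ovx over control mice, in MaSC-enriched (circles) and luminal cells (squares), with 95% confidence intervals; all symbols are open because no gene passed an adjusted p of 0.05. In MaSC-enriched cells the intervals of Fzd7, Fzd8 and Fzd2 lie right of 0, and in luminal cells every interval spans 0.

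Averaged over both fractions, Fzd7 was 1.23 higher in ovx mice (adjusted p = 0.168), Fzd8 0.98 (0.167) and Fzd2 0.77 (0.281), and 0 of 8 genes passed, where 0.239% of all genes did. Without control MaSC-enriched replicate 1, Fzd7 passed in this average (1.49, adjusted p = 0.0447). Whether ovariectomy acted differently in the fractions was tested as a difference of the ovx effects. The smallest p was that of Fzd2, with a fitted difference of 2.28 (SE 0.493, unadjusted p = 0.00226, limma adjusted p = 0.453), or 1.14 with undetected values at the detection limit. The difference was −2.47 for Fzd10 (adjusted p = 1), 1.00 for Fzd7 and 0.80 for Fzd8. No gene of the array passed this test in limma, while 5.12% of the genes had an unadjusted p under 0.05.

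The other genes of the pathway were counted in the averaged comparison of the fractions, against the same 13.7% of genes higher and 13.1% lower. Of the Wnt ligands, 8 of 19 were tested, 3 higher and 3 lower in MaSC-enriched cells: Wnt10a (4.95) and Wnt6 (3.61) were higher and Wnt4 (−3.97) and Wnt7b (−3.68) lower, with adjusted p from 0.000254 to 0.00115. Wnt4 is known in mouse as a progesterone-induced luminal signal to basal cells. The median of the 8 ligands was −0.31, against −0.10 for all genes.

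Receptors that work beside Frizzled were higher for 4 and lower for 0 of 11 tested genes (median 0.47). These were Antxr1 (5.12), an anthrax toxin receptor, Reck (2.50), which presents Wnt7 proteins to Frizzled, Lrp4 (1.46) and Ptk7 (1.29), a polarity co-receptor, with adjusted p from 0.000191 to 0.00563. The principal co-receptors Lrp5 (0.20) and Lrp6 (0.26) did not pass.

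All 4 tested genes among the secreted antagonists that share a Frizzled-type or Wnt-binding domain, with Norrin, were higher in MaSC-enriched cells. Wif1 (6.13), a Wnt-binding inhibitor, and Sfrp1 (4.23), which carries a Frizzled-like domain, had adjusted p of 3.16e-05 and 0.000383. Sfrp2 (1.06) and Ndp (1.01), which encodes Norrin, the ligand of Fzd4, passed as well (adjusted p = 0.0191 and 0.0172). The genes that control Frizzled at the membrane were higher for 2 and lower for 0 of 8 tested, namely the R-spondin receptors Lgr5 (4.33, adjusted p = 0.000276) and Lgr6 (1.70, adjusted p = 0.0244). Rnf43, a ligase that removes Frizzled from the membrane, stood at 0.47 (adjusted p = 0.409).

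Inside the cell, Axin2 (2.66, adjusted p = 0.0039) was higher and Apc (−1.18, adjusted p = 0.0151) lower among 7 tested Dishevelled and destruction complex genes, both scaffold genes of that complex. Of 6 tested planar cell polarity genes, Prickle2 (2.69, adjusted p = 0.00112) and Prickle1 (1.35, adjusted p = 0.00956) were higher. Of 6 tested beta-catenin target genes 5 were higher, with a median of 3.12, and those with the smallest p were Nkd1 (4.26), Lgr5, Nkd2 (3.57) and Axin2. Axin2, Lgr5 and Rnf43 each stand in more than 1 list. In the ovx comparisons, 0 tested genes of these 7 lists passed in either fraction in limma, as was the case for the Frizzled genes.

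**Figure D5:**
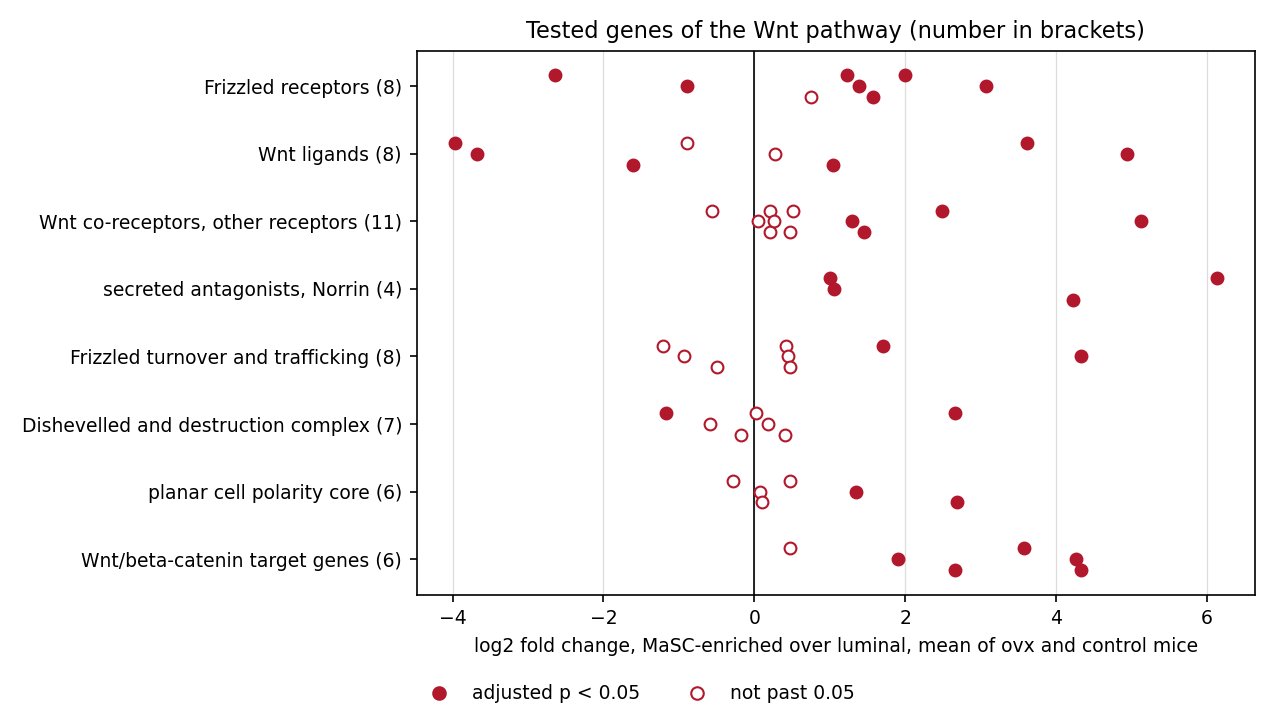
Averaged log2 fold change, MaSC-enriched over luminal cells, of every tested gene of the Frizzled family and of 7 Wnt pathway lists; filled points passed an adjusted p of 0.05 and the number of tested genes stands in brackets. The secreted antagonists with Norrin lie at 1.01 to 6.13, all filled, while the Wnt ligands fall on both sides of 0, from −3.97 to 4.95.

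The patterns over the 8 samples were compared by Pearson correlation, as a description over samples that share the split of the fractions. Among all pairs of the tested Frizzled genes, the strongest r were 0.973 for Fzd7 and Fzd8, −0.933 for Fzd5 and Fzd10 and 0.912 for Fzd1 and Fzd3. Other pairs were high too, such as 0.855 for Fzd5 and Fzd7 and −0.853 for Fzd3 and Fzd6. The weakest was −0.512, for Fzd2 and Fzd6. Over all tested genes, the profiles most like Fzd7 were those of Scx (r = 0.993), a tendon transcription factor gene, Frmd6 (0.991), an upstream member of the Hippo pathway, and Mcam (0.989), a cell adhesion gene also known from vessels. Those most like Fzd8 were Gli2 (0.993), a Hedgehog transcription factor gene, Adm (0.988), which encodes adrenomedullin, and Ntn4 (0.987), which encodes netrin 4. Fzd10 was closest to Itpr3 (0.99), which encodes a calcium channel of the endoplasmic reticulum, Lpcat3 (0.98), a phospholipid acyltransferase gene, and Tbc1d5 (0.979).

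For the remaining genes that passed, the likest profiles were Rgs19 (0.995), Lgalsl (0.986) and Fat4 (0.978) for Fzd1, and Chst12 (0.99), Tlcd5 (0.988) and Zfp423 (0.982) for Fzd2. Those of Fzd3 were Ccdc88a (0.98), Mtap (0.98) and Slc19a1 (0.979), and those of Fzd6 were Usp46 (0.987), Mfsd11 (0.986) and Esrra (0.982).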

How the data were processed

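The deposited non-normalized table gives a bead intensity and its detection p-value per probe and array, per the file headers. The deposited series table holds normalized values on a log2 scale (array medians 6.22 to 6.23) and served as an alternative. BeadStudio and limma are named in the submitters' processing notes, with neither version nor role. Intensities were background-corrected, quantile-normalized and put on the log2 scale with neqc (offset of 16) in limma 3.58.1 under R 4.3.3, with background parameters inferred from the detection p-values, and arrays of 1 RNA were averaged.

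Probes with a mean detection p under 0.05 in at least 2 of 8 samples were kept (20995 probes, 46.4%), and a gene is represented by its brightest kept probe. Of all probes, 34885 had 1 gene symbol, 18 several and 10378 none. A limma model with 4 group means (4 residual and 3.22 prior degrees of freedom) gave two-sided tests, with Benjamini-Hochberg adjustment across the kept probes and a threshold of 0.05, for 7 comparisons. It was tested on simulated data. With 2 samples a group, the smallest exact permutation p is 0.333, so the tests rest on the spread that limma shares across probes. The p-values measure the spread between the 2 samples of a group, in which pool and array differences are not separated. Pool numbers in the labels tie the fractions; deviations from group means correlated at 0.135 and 0.367 within pools. The labels tie no ovx pool to a control pool; for equal replicate numbers the correlations were 0.587 in MaSC-enriched and 0.279 in luminal cells.

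Members, gene lists and tests were chosen with earlier results of these data known. From each list up to 4 genes with the smallest p in the averaged fraction comparison are named with their call, and for each called Frizzled gene the 3 genes with the highest Pearson r; Lrp5, Lrp6, Rnf43 and the markers Krt5 and Lep were named in addition, after their values were seen. The alternatives covered background, scaling, probe filter, beadchip, pool block and each left-out sample; raising undetected values to the detection limit was added after seeing the data.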

Additional observations from a re-analysis of the deposited data

How the results depend on the processing

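In the control comparison of the fractions, the count of 1 Frizzled gene called was 0 with median scaling and on beadchip 1 alone, 2 without background correction, with all 12 arrays and the beadchip fixed, on beadchip 2 alone, without the control replicate 2 pool, with the pool as a fixed replicate block and with undetected values at the detection limit, and 4 with the pool as a random replicate block. In ovx mice the count of 4 was 0 on beadchip 1 alone and 7 without the control replicate 2 pool. In the average the count of 7 was 4 without the filter on dim probes and 1 on beadchip 1 alone. With single samples left out, these counts ran from 0 to 2 in control mice, 1 to 5 in ovx mice and 2 to 8 in the average. For ovx against control, the count of 0 in MaSC-enriched cells was 1 without the control replicate 2 pool (Fzd2, adjusted p = 0.0415) and 0 to 1 with single samples left out, as in the average of the fractions. It stayed 0 in luminal cells and for the difference of effects in every setting run. Leaving out 1 sample leaves its group on a lone sample, assumed to vary like the other groups. Leaving out the control replicate 2 pool does so for both control groups. Beadchip 1 alone does so for both luminal groups and beadchip 2 alone for both MaSC-enriched groups. The ovx comparison of the fractions uses no control sample. Without that pool the calls gained there came with unchanged fold changes, 1.58 for Fzd1, 1.70 for Fzd3 and 1.08 for Fzd5. With undetected values at the detection limit, the gene gained in control mice was Fzd1, at 1.44. Its undetected control MaSC-enriched replicate 1 value of 6.22 was there raised to the limit of that array, 7.29. No cause of the changes in these counts was tested.

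The sign turned for 17 of 1066 recomputed gene values, all of them uncalled. Between fractions in control mice, Fzd2 ran from −0.26 to 0.43 with single samples left out and was −0.046 without the control replicate 2 pool, and Fzd5 was −0.51 with median scaling. In ovx against control MaSC-enriched cells, Fzd3 ran from −1.48 to 0.47 with single samples left out, Fzd5 from −0.017 to 0.83 and Fzd10 from −1.78 to 0.11. There Fzd3 was 0.013 with median scaling and 0.47 without the control replicate 2 pool, and Fzd5 was −0.017 without it. In luminal cells, the range with single samples left out was −0.17 to 0.55 for Fzd1, −0.54 to 0.69 for Fzd3, −0.51 to 0.032 for Fzd5 and −0.42 to 0.0050 for Fzd6. Fzd5 was 0.032 without the control replicate 2 pool and Fzd1 −0.0017 with undetected values at the limit.

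Median scaling moved the median of all genes by −0.71 in the control, −0.23 in the ovx and −0.47 in the averaged fraction comparison, and by 0.46 in ovx MaSC-enriched cells. Relative to −0.83 for all genes, Fzd7 then stood at 1.66 in control mice. Over all settings, the number of probes called ran from 181 to 5503 in the control fraction comparison (2122 as reported), 262 to 4337 in ovx mice (2596) and 1714 to 8326 on average (5096). It ran from 0 to 583 for ovx in MaSC-enriched cells (16), 0 to 137 in luminal cells (33), 0 to 260 on average (44) and 0 to 9 for the difference of effects (0). The pool as a replicate block changed no Frizzled calls other than those of Fzd1, Fzd3, Fzd6 and Fzd8 given above. Signal near the detection limit bounds Fzd1, Fzd2, Fzd8, the dimmer Fzd10 probes and Fzd3 probe ILMN_2801520, most of all in control MaSC-enriched replicate 1.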
